A study of Mus musculus with 60 samples.

Results

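The genes described here are Meis1, Meis2, Meis3, Pbx2 and Pbx3, 5 of the 55487 genes counted in this series of mouse embryonic stem (ES) cells. They were chosen by name as Meis and Pbx members of the TALE homeobox class, from a list drawn up with results of these data in view and with no threshold on their values. The change of RNA level along the retinoic acid (RA) time course is taken as the pattern they were selected on, so it is given below as a description with no test. All 60 libraries come from E14JU cells in which POLE4, a histone-binding subunit of the leading-strand DNA polymerase epsilon, carries a dTAG degron on its own gene. Control cells (Ctrl) received the solvent DMSO and dPOLE4 cells received dTAG-13, which causes degradation of the tagged protein. Both treatments were applied in a WT background and in an MCM2-2A background, in which the replicative helicase subunit MCM2 carries a mutated histone-binding domain. Each background is 1 clone, so that the mutation and the clone cannot be told apart. In the first experiment the cells were treated for 24 h in serum and LIF (T0) and then kept with RA and without LIF for 12, 24 or 60 h (T12, T24 and T60), which gave 16 groups. In a separate experiment the cells were treated for 96 h in serum and LIF with no RA, which gave 4 groups. Every group holds 3 libraries of ribosomal RNA-depleted total RNA. The study's methods call them biological replicates.

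TALE homeodomain proteins carry an insertion of 3 extra residues between the first helices of the homeodomain. The Meis and Pbx families are best known as cofactors of Hox proteins: Pbx proteins bind DNA next to Hox proteins, and Meis proteins bind Pbx through their amino-terminal region, hold it in the nucleus and contact DNA themselves. RA, a vitamin A derivative that patterns the hindbrain and limb in the embryo, binds nuclear receptors (RARs) and switches on the 3′ Hox genes and several TALE genes in ES cells and teratocarcinoma cells.

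Meis1 lies on the minus strand of chromosome 11 (mm10, chr11:18879817-19018985, ENSMUSG00000020160) and Meis2 on the minus strand of chromosome 2 (chr2:115863064-116065839, ENSMUSG00000027210). Meis3 lies on the plus strand of chromosome 7 (chr7:16175090-16186504, ENSMUSG00000041420). Pbx2 lies on the plus strand of chromosome 17 (chr17:34591266-34597400, ENSMUSG00000034673) and Pbx3 on the minus strand of chromosome 2 (chr2:34171457-34373142, ENSMUSG00000038718). Exons of Meis1 share 1029 bases with a predicted transcript on the same strand, Gm37818, which held 2292 counts over all libraries beside 40967 for Meis1. Exons of Pbx2 share 227 bases with its neighbour Gpsm3, which held 10708 counts beside 122121 for Pbx2. Reads in these shared bases could be split between both genes.

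The stretches before the RefSeq start sites of Meis1, Meis2 and Pbx2 are shown because the first pair differed most between the backgrounds and Pbx2 did not pass the thresholds in any comparison of backgrounds or treatments. RefSeq windows of 300 bases (250 before and 50 after the start, GRCm38.p6) were held for 4 of the 5 members; Pbx3 had no entry. Only bases before the start and outside annotated exons are printed, in lower case on the gene's own strand, and capitals mark the CCAAT letters on either strand.
Meis1, chr11:19018986-19019219: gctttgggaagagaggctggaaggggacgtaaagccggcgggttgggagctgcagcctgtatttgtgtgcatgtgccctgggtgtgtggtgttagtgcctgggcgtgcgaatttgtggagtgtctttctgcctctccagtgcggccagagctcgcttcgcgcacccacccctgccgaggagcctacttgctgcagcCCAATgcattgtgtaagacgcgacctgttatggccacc
Meis2, chr2:116064722-116064801: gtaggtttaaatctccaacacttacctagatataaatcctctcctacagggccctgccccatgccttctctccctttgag
Pbx2, chr17:34592009-34592258: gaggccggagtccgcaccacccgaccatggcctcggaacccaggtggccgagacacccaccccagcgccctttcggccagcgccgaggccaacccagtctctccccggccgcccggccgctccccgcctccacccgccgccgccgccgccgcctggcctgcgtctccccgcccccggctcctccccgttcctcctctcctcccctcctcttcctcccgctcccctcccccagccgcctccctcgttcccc
Both strands of the whole windows were searched for short letter strings. The Meis core site TGACAG, held by 19.2% of all 32851 RefSeq windows, was in none of the 4, nor was the Hox-Pbx string TGATNNAT, held by 8.85%. Of the core strings bound by RARs, AGGTCA (16.3% of windows) and GGGTCA (13.7%) were in none of the 4, and AGTTCA (14%) was in the Meis3 window, 22 bases before the start on the opposite strand. CCAAT (37.4% of windows) was in the Meis1 window, 54 bases before the start, and in the Meis2 window, 210 bases before the start on the opposite strand and outside the printed stretch. The 4 windows held 15 CpG in Meis1, 13 in Meis2, 21 in Meis3 and 29 in Pbx2, with G or C at 58.3%, 51.0%, 66.7% and 76.0% of bases. A match is a match of letters and not a bound site.

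Levels are given in CPM (counts per 1000000, scaled by the TMM method within each experiment), as mean ± SD of 3 libraries. The deposited totals ran from 10461077 to 46609151 counts per library in the RA experiment and from 7126100 to 23598266 in the 96 h experiment. The lowest member levels therefore rest on few reads: Meis1 had 19 to 103 counts per library at T0 and Meis3 44 to 526 over the whole RA experiment. All 7 pluripotency markers looked up were detected at T0, where their summed level was 2695 ± 62.8 CPM in Ctrl. At T60 it was 149.6 ± 14.2 CPM in Ctrl.

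Among the members, Meis1 and Meis2 showed the widest range along RA. In Ctrl cells Meis1 stood at 3.63, 2.73 and 2.68 CPM in the 3 T0 libraries, at 17.3, 17.1 and 20.4 CPM at T12, at 51.9, 52.2 and 59.9 CPM at T24 and at 224, 234 and 243 CPM at T60. No library of one time overlapped those of the next, and the mean at T60 was 77.4 times that at T0 (log2 difference 6.25 ± 0.10 SE). Meis2 stood at 7.88, 6.72 and 7.38 CPM at T0, at 34.8, 37.8 and 37.5 CPM at T12, at 71.5, 73.4 and 77.9 CPM at T24 and at 203, 206 and 199 CPM at T60. Its T60 mean was 27.7 times its T0 mean (log2 difference 4.77 ± 0.08 SE), again with no overlap between neighbouring times. Meis3, the shortest of the 3 Meis genes, stayed low until T24 and was higher at T60: its means were 2.85 ± 0.31, 4.32 ± 0.53, 4.80 ± 0.68 and 14.2 ± 1.40 CPM at T0, T12, T24 and T60. The T12 and T24 libraries of Meis3 overlapped.

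The Pbx genes followed other courses. Pbx2, a broadly expressed Pbx, stood at 56.8, 57.2 and 55.4 CPM in the Ctrl T0 libraries and at 126, 149 and 129 CPM at T12. It then kept this level, with means of 134.4 ± 12.3, 136.1 ± 6.89 and 133.4 ± 0.72 CPM at T12, T24 and T60 and overlapping libraries. Pbx3 stood at 8.96 ± 1.13 CPM at T0 and at 13.1 ± 2.13, 16.1 ± 0.68 and 19.0 ± 0.39 CPM at T12, T24 and T60, a T60 mean 2.12 times that at T0. Pbx2 was thus at its final level by T12, while Meis1 and Meis2 were higher again at T24 and at T60.

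Per kilobase of exon, which allows a comparison between genes, Pbx2 was the most abundant member at each time in Ctrl. It made up 82.7 ± 0.56% of the summed CPM per kilobase of the 5 genes at T0 and 44.0 ± 0.48% at T60. Over the same time the share of Meis1 went from 1.52 ± 0.25% to 26.6 ± 0.81% and that of Meis2 from 3.24 ± 0.27% to 20.2 ± 0.58%. At T60 Pbx2 stood at 36.7 ± 0.19, Meis1 at 22.2 ± 0.92, Meis2 at 16.8 ± 0.30, Meis3 at 4.48 ± 0.44 and Pbx3 at 3.11 ± 0.06 CPM per kilobase. In the dPOLE4 MCM2-2A cells at T60 the shares were 10.4 ± 0.67% for Meis1, 8.11 ± 1.1% for Meis2 and 68.4 ± 0.56% for Pbx2.

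**Figure D1:**
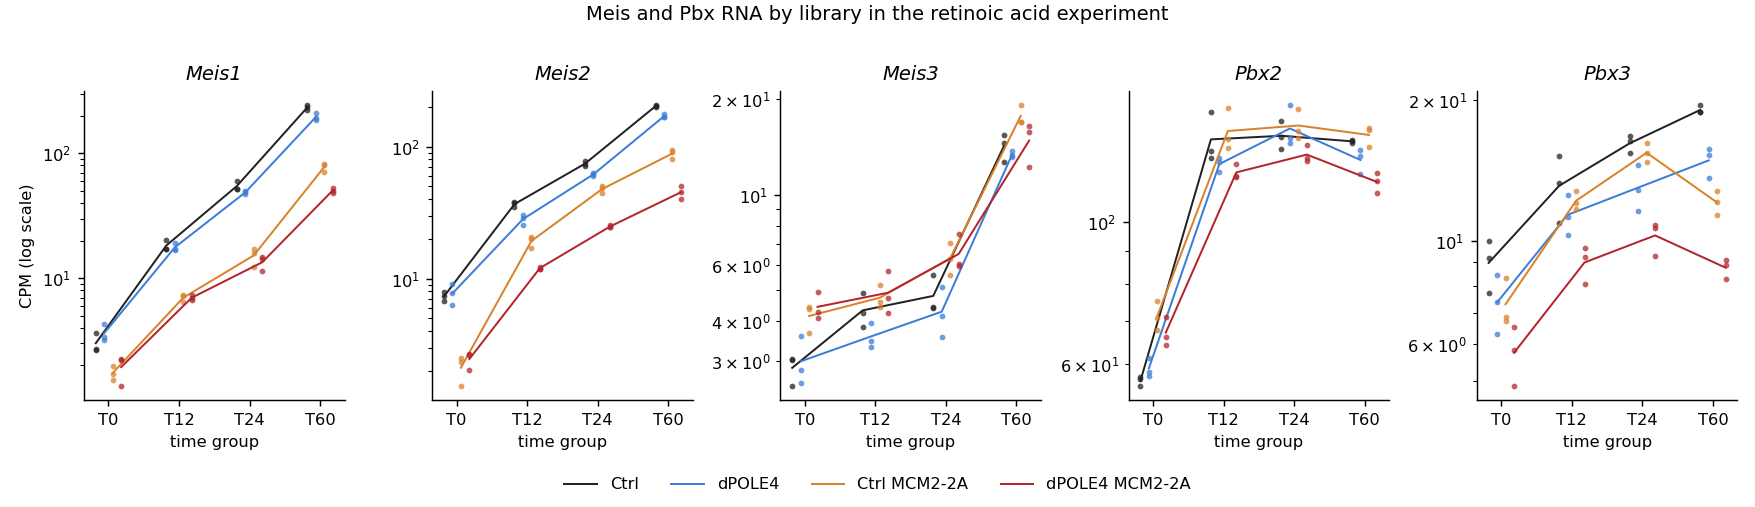
CPM on a log axis for each member in the RA experiment, by time group (evenly spaced, not to scale). Points are single libraries (3 per group), lines join group means, and colours give the 4 combinations of background and treatment. Meis1 and Meis2 in both MCM2-2A groups lie under the WT-background groups at each time, while the Pbx2 libraries lie between 110.9 and 151.9 CPM from T12 on.

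Other genes of the pathway were counted from lists, with DE meaning an adjusted p below 0.01 (edgeR quasi-likelihood test, Benjamini-Hochberg over all features tested) and an absolute log2 fold change above 0.58. In Ctrl cells 11.3% of all features tested were DE at T12 against T0, 21.8% at T24 and 50.6% at T60. All 10 Hox genes listed from the anterior ends of the Hoxa and Hoxb clusters, the partners of the TALE proteins, rose at T12, T24 and T60, with a median log2 fold change of 8.39 at T60 beside -0.01 over all features. Hoxb1 was at 0.162 ± 0.092 CPM at T0 and 73.4 ± 13 CPM at T60. Of 10 RA receptor and early RA genes, 9, 9 and 8 rose and 0, 1 and 1 fell at T12, T24 and T60. Cyp26a1, which encodes an RA-degrading enzyme, was at 3.2 ± 0.22 CPM at T0 and 189.5 ± 24.8 CPM at T12. Of 13 other TALE genes, 11, 11 and 12 were tested, of which 3, 5 and 7 rose and 1 fell at T12, T24 and T60. Among them Tgif1, a TALE repressor, fell from 128.9 ± 6.40 to 67.1 ± 4.63 CPM (log2 fold change -0.97 ± 0.07 SE, edgeR adjusted p = 5.37e-09).

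The genes whose mean log2 CPM over the 16 groups of the RA experiment correlated best with a member are given as a description, since these groups share time and lines. For Meis1 they were Gm37818, which shares exon bases with it (r = 0.995), Numb, a Notch inhibitor (r = 0.992), and Dmrta2 (r = 0.989). For Meis2 they were Sos2 (r = 0.991), Pimreg and Zfp618 (both r = 0.981). For Meis3 they were Itm2c (r = 0.988), Rhou and Srgn (both r = 0.986). The Pbx2 course was most like Hoxa4 (r = 0.988) and Hoxa7 (r = 0.981), and the Pbx3 course was most like Skida1 (r = 0.958), Plk4 (r = 0.943) and Epha7 (r = 0.939). Among the members, Meis1 and Meis2 were the most alike (r = 0.969) and Meis3 and Pbx3 the least (r = 0.413).

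The first tested question was whether the members differ between the MCM2-2A and the WT background without POLE4 degradation. Meis1 and Meis2 were lower in MCM2-2A throughout RA treatment, and the other 3 members were closer between backgrounds. These p-values come from fits over all features. The genes were listed with results in view, so they are not independent evidence.

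Meis1 in Ctrl MCM2-2A stood at 6.44, 7.30 and 7.18 CPM at T12, at 12.4, 17.2 and 16 CPM at T24 and at 82.2, 70.5 and 80.7 CPM at T60. Each of these libraries was below every WT-background library of its time, and the means were 38.2%, 27.8% and 33.4% of Ctrl. The log2 fold change was -1.38 ± 0.11 SE at T12 (edgeR adjusted p = 1.07e-05), -1.81 ± 0.09 at T24 (adjusted p = 2.61e-10) and -1.57 ± 0.07 at T60 (adjusted p = 7.32e-10). At T0 it was -0.76 ± 0.21, with an adjusted p of 0.01001 that lay just outside the threshold. In the separate 96 h experiment, also in serum and LIF, Meis1 stood at 3.88, 3.35 and 2.51 CPM in Ctrl MCM2-2A and at 2.80, 3.06 and 3.15 CPM in Ctrl, which overlap (log2 fold change 0.08 ± 0.22, edgeR adjusted p = 0.805).

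The chromosome that carries Meis1 was itself lower in the MCM2-2A line. The median log2 fold change of the other genes tested on chromosome 11 was -0.55 at T60 (1386 genes) and -0.48 at T0 (1390 genes). That of the 47 genes within 5 Mb of Meis1 was -0.68 at T60, and that of the 45 genes within 5 Mb was -0.73 at T0 and -0.76 at 96 h. The medians of chromosomes 2, 7 and 17, which carry the other members, lay between -0.02 and 0.05 in these 10 comparisons of the backgrounds. The Meis1 difference at T0 was thus of the size of its neighbours' median, and at T12, T24 and T60 it was larger. At 96 h, where the 5 Mb median was -0.76, the Meis1 value in Ctrl was 0.08. The part of the chromosome 11 shift in the Meis1 result was not tested, at single times or in the difference of the RA response given below.

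**Figure D2:**
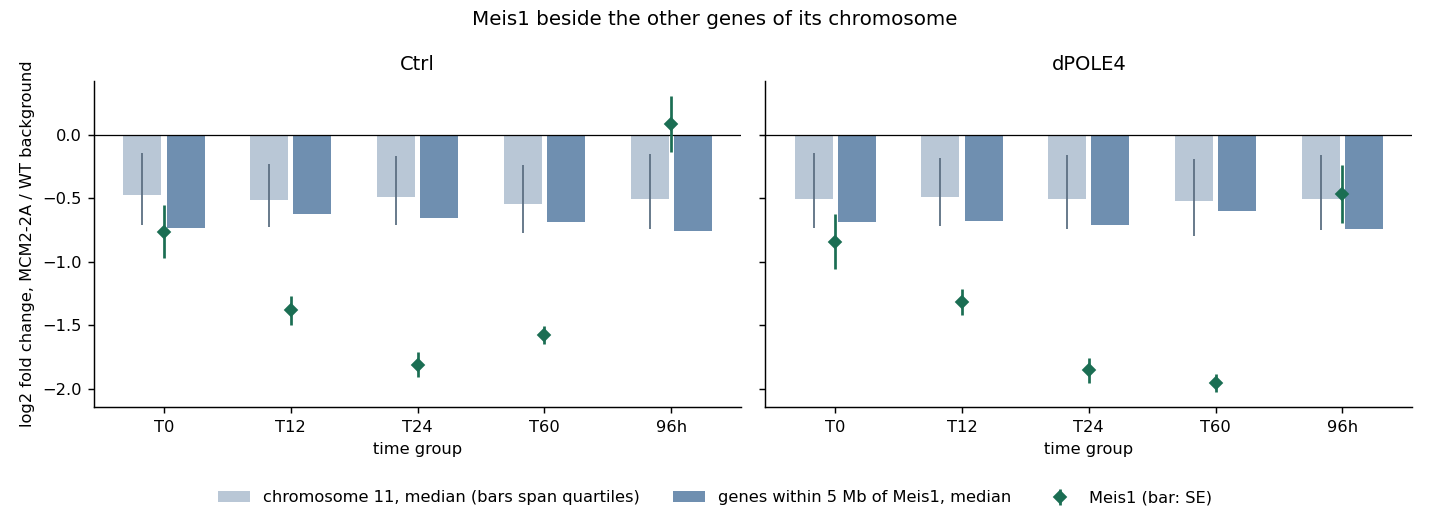
Log2 fold change between MCM2-2A and WT background by time group, in Ctrl (left) and dPOLE4 (right). Bars give the median of the other genes of chromosome 11 (lines span the quartiles) and of genes within 5 Mb, and diamonds give Meis1 ± SE; at T12, T24 and T60 Meis1 lies below both medians and at 96 h above the 5 Mb median.

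Meis2 was already lower before RA. In Ctrl MCM2-2A it stood at 2.32, 1.53 and 2.49 CPM at T0, where Ctrl stood at 6.72 to 7.88 CPM (log2 fold change -1.74 ± 0.17 SE, edgeR adjusted p = 8.61e-06). It stood at 19.9, 17.2 and 20.8 CPM at T12, at 44.6, 49.9 and 48.3 CPM at T24 and at 94.0, 80.8 and 91.6 CPM at T60, all below the Ctrl libraries of the same time. Its means were 28.8%, 52.5%, 64.1% and 43.8% of Ctrl at T0, T12, T24 and T60. The log2 fold change was -0.92 ± 0.09 SE at T12 (adjusted p = 2.77e-05), -0.61 ± 0.06 at T24 (adjusted p = 2.18e-07) and -1.18 ± 0.06 at T60 (adjusted p = 6.81e-09). Without Ctrl MCM2-2A replicate 1 the T24 value was -0.57, within the fold threshold. At 96 h Meis2 was lower again, at 4.85, 4.66 and 3.76 CPM against 8.96, 6.95 and 8.32 CPM (log2 fold change -0.88 ± 0.18 SE, edgeR adjusted p = 0.00203, and 0.0177 without Ctrl MCM2-2A replicate 3).

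Meis3, Pbx2 and Pbx3 showed smaller differences. Pbx3 fell in MCM2-2A at T60, where its libraries stood at 12.8, 12.1 and 11.3 CPM against 18.8, 18.8 and 19.5 CPM in Ctrl (log2 fold change -0.64 ± 0.09 SE, edgeR adjusted p = 6.29e-05). Meis3 had higher mean levels in MCM2-2A at each time, 17.7 ± 1.24 CPM against 14.2 ± 1.40 CPM at T60 (log2 fold change 0.33 ± 0.10 SE, edgeR adjusted p = 0.0165). It passed both thresholds at 96 h alone, at 3.47, 5.40 and 4.39 CPM against 2.40, 2.78 and 2.59 CPM (log2 fold change 0.82 ± 0.21 SE, edgeR adjusted p = 0.00899). That call was lost in DESeq2 (adjusted p = 0.0240) and in 5 of 6 fits that left out 1 library (adjusted p from 0.0226 to 0.0599), all but the one without Ctrl MCM2-2A replicate 1. Pbx2 differed at T0 by 0.32 ± 0.05 on the log2 scale (edgeR adjusted p = 0.000422), under the fold threshold.

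In counts, 1, 2, 2, 3 and 2 of the 5 members were DE at T0, T12, T24, T60 and 96 h. The share of all features DE in the same comparisons was 18.9%, 14.5%, 17.3%, 16.9% and 15.7%. The members' median log2 fold change at T60 was -0.64 beside 0.01 over all features.

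The same comparison in dPOLE4 cells used other libraries of the same clones, so it does not separate mutation and clone either. It gave 2, 2, 2, 3 and 1 DE members, all lower in MCM2-2A, beside 18.6%, 18.4%, 16.1%, 20.4% and 16.4% of all features. Meis1 at T60 stood at 50.2, 48.5 and 52.7 CPM in dPOLE4 MCM2-2A and at 190.7, 184 and 210.3 CPM in dPOLE4 (log2 fold change -1.95 ± 0.07 SE, edgeR adjusted p = 1.69e-09). Meis2 at T60 stood at 44.9, 40.0 and 50.4 CPM against 167, 167 and 176 CPM (log2 fold change -1.92 ± 0.08 SE, edgeR adjusted p = 4.24e-09). Neither gene's groups overlapped. At T12 and T24 the log2 fold changes were -1.32 and -1.85 for Meis1 and -1.21 and -1.30 for Meis2, with edgeR adjusted p-values up to 5.6e-07. At T0 Meis2 differed by -1.63 ± 0.18 (adjusted p = 2.74e-05). Meis1 differed at T0 by -0.84 ± 0.22 (adjusted p = 0.00841), a call that was lost whichever of the 6 libraries was left out (adjusted p from 0.0103 to 0.0305). Pbx3 fell at T60, with 8.28, 9.09 and 8.89 CPM against 13.6, 15.7 and 15.2 CPM (log2 fold change -0.77 ± 0.11 SE, edgeR adjusted p = 7.66e-05). At 96 h only Meis2 passed, at -1.06 ± 0.16 (edgeR adjusted p = 0.000348).

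**Figure D3:**
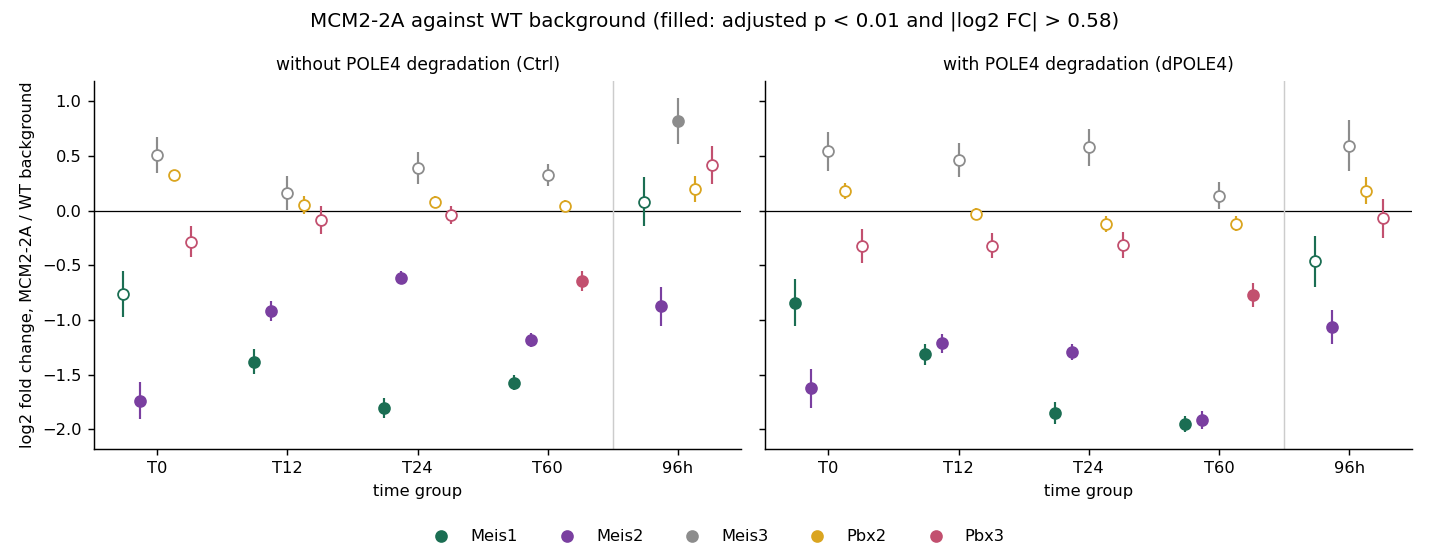
Log2 fold change (± SE) of each member in MCM2-2A against WT background by time group, in Ctrl (left) and dPOLE4 (right), 3 libraries per group. Filled points passed both thresholds; Meis1 and Meis2 lie between -0.61 and -1.95 at T12, T24 and T60, and Pbx2 lies between -0.13 and 0.32 over all groups.

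The summed levels of some lists of cell state markers also differed between the backgrounds, before RA too. These sums were not tested, and they do not show which markers of a list differed. At T0, where Meis2 was lower in MCM2-2A, the 4 mesoderm markers summed to 54.9 ± 7.41 CPM in Ctrl and 10.0 ± 1.53 CPM in Ctrl MCM2-2A, and to 50.3 ± 10.2 and 13.2 ± 1.04 CPM in the dPOLE4 groups. The 5 neural markers summed at T0 to 226.0 ± 4.49 CPM in Ctrl and 170.0 ± 10.7 CPM in Ctrl MCM2-2A, and the 5 endoderm markers to 6.84 ± 3.32 and 21.9 ± 2.98 CPM. The pluripotency markers summed to 2695 ± 62.8 and 2776 ± 198 CPM. At T12 and T24 the neural sum was 157.0 and 158.9 CPM in Ctrl and 110.5 and 86.3 CPM in Ctrl MCM2-2A, and the mesoderm sum was 30.9 and 16 CPM against 9.43 and 6.54 CPM. At 96 h, where Meis2 was lower again, the endoderm sum was 6.98 ± 0.30 and 28.4 ± 1.33 CPM, the neural sum 210.7 ± 6.27 and 175.4 ± 18.3 CPM, and the mesoderm sum 13.3 ± 3.18 and 12.3 ± 1.92 CPM. At T60 the summed level of the 7 pluripotency markers was 346.0 ± 56.3 CPM in Ctrl MCM2-2A and 484.1 ± 65.0 CPM in dPOLE4 MCM2-2A, against 149.6 ± 14.2 CPM in Ctrl and 157.8 ± 12.6 CPM in dPOLE4. The 5 neural markers summed to 245.9 ± 17.7 and 185.5 ± 8.91 CPM in the 2 MCM2-2A groups, and to 322.2 ± 13.9 and 285.9 ± 5.66 CPM in the WT-background groups. The 5 endoderm markers summed to 294.2 ± 12.3 and 228.5 ± 14.7 CPM, against 162.7 ± 27.7 and 133.2 ± 12.2 CPM, and the 4 mesoderm markers to between 8.99 and 16.5 CPM in all 4 groups. Every marker had counts in each of these groups. In such bulk samples fewer cells of a type and less RNA per cell cannot be told apart, and the part of cell state in the Meis and Pbx values was not tested.

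Of the 10 Hox partners, 1 and 0 rose and 0 fell in MCM2-2A at T12 and T24 in Ctrl, with median log2 fold changes of 0.26 and -0.07. In dPOLE4 0 and 4 fell and 0 rose at these times, with medians of -0.14 and -0.48. At T60 3 fell and none rose in Ctrl, and 8 fell and none rose in dPOLE4, with medians of -0.53 and -0.94. Of all features 16.9% and 20.4% were DE between backgrounds at T60 in Ctrl and in dPOLE4. Hoxb2 stood at 33.9 ± 4.01 CPM in dPOLE4 MCM2-2A and at 69.3 ± 3.27 CPM in dPOLE4 (log2 fold change -1.04 ± 0.09 SE, edgeR adjusted p = 1.29e-06). Hoxb1 stood at 40.7 ± 5.21 and 75.6 ± 1.98 CPM (log2 fold change -0.90 ± 0.09 SE, edgeR adjusted p = 3.96e-06). The Hoxb genes of the list lie on chromosome 11, as Meis1 does. The median of the chromosome 11 genes other than Meis1 was -0.55 in Ctrl and -0.52 in dPOLE4 at T60. The part of this shift in the Hox counts and medians was not tested. Of 12 other TALE genes tested at T60, 4 fell and none rose in Ctrl, and 4 fell and 2 rose in dPOLE4. Tgif1 and Tgif2 did not pass both thresholds in either. Of the 10 RA receptor and early RA genes, 2 rose and 2 fell in Ctrl, and 2 rose and 3 fell in dPOLE4. Dhrs3, which encodes a retinaldehyde reductase, was lower in both (log2 fold change -0.89 and -1.16), and Cyp26a1 stood at 251.1 ± 8.19 CPM in Ctrl MCM2-2A and 211.8 ± 56.4 CPM in Ctrl.

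To compare the response to RA itself, the change from T0 was compared between backgrounds in one fit of 12 libraries. These differences are built from the T0 and RA values that the members are taken to be selected on. Their p-values are therefore not independent evidence. From T0 to T24 the mean of Meis1 became 18.1 times higher in Ctrl and 8.74 times higher in Ctrl MCM2-2A. The log2 responses differed by -1.07 ± 0.23 SE (edgeR adjusted p = 0.00597). To T60 the factors were 77.4 and 44.7 (difference -0.86 ± 0.19 on the log2 scale, edgeR adjusted p = 0.00247). In dPOLE4 cells they were 53.8 and 26.0 (difference -1.15 ± 0.19 SE, edgeR adjusted p = 0.000421). At T12 the difference for Meis1 was -0.62 ± 0.21 (edgeR adjusted p = 0.242).

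Meis2 went the other way in Ctrl. Its mean became 10.1 times higher by T24 in Ctrl and 22.5 times higher in Ctrl MCM2-2A, from a lower start (difference 1.09 ± 0.15 on the log2 scale, edgeR adjusted p = 0.000157). At T12 the difference was 0.81 ± 0.18 (adjusted p = 0.0384) and at T60 0.50 ± 0.16 (adjusted p = 0.0258), neither past the threshold. In dPOLE4 at T60 it was -0.31 ± 0.19 (adjusted p = 0.294). The T0 level of Meis2 in Ctrl MCM2-2A, which enters these differences, rests on 20 to 102 counts per library. Pbx2 differed by -0.31 ± 0.08 in Ctrl at T60 (edgeR adjusted p = 0.00815), under the fold threshold. In all, 0, 2 and 1 of the 5 members were DE in Ctrl at T12, T24 and T60 and 1 in dPOLE4 at T60, beside 0.303%, 2.18%, 9.1% and 8.22% of all features.

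The call for Meis1 in Ctrl at T24 was lost in 6 of 12 fits that left out 1 library (adjusted p from 0.0102 to 0.0432), those without replicate 2 or 3 of Ctrl T0, replicate 2 or 3 of Ctrl T24, or replicate 3 of Ctrl MCM2-2A at T0 or T24. At T60 in Ctrl it was lost without Ctrl T0 replicate 3 (adjusted p = 0.0117) or Ctrl MCM2-2A T0 replicate 3 (adjusted p = 0.0383), and at T60 in dPOLE4 without dPOLE4 MCM2-2A T0 replicate 3 (adjusted p = 0.0111). The call for Meis2 at T24 was kept in all 12.

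The next question was what degradation of POLE4 does to the members in each background. In the WT background no member passed at any time. Of all features 0.0% were DE at T0, 0.0% at T12, 0.0% at T24, 0.193% at T60 and 0.0% at 96 h. The 4 counts of 0 compare with 2069, 1150, 1451 and 2164 features at an unadjusted p below 0.05 in edgeR, and with 0, 2, 15 and 25 features DE in DESeq2, at T0, T12, T24 and 96 h. DESeq2 called no member either, and gave Meis2 at T60 an adjusted p of 0.00534 at a fold under the threshold. It gave no adjusted p to 4 members at T0 and to Meis3 at T12.

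At T60 in the WT background all dPOLE4 libraries lay below all Ctrl libraries for 4 of the 5 members, all but Meis3, as they did for 10.9% of all features tested. Meis1 stood at 190.7, 184 and 210.3 CPM against 224, 234 and 243 CPM (log2 fold change -0.24 ± 0.06 SE, edgeR adjusted p = 0.0670). Meis2 stood at 167, 167 and 176 CPM against 203, 206 and 199 CPM (log2 fold change -0.24 ± 0.05 SE, edgeR adjusted p = 0.0378). Neither difference passed the thresholds.

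In the MCM2-2A background, where dPOLE4 cells carry both changes, Meis2 was lower at each time after RA. It stood at 12.4, 11.8 and 11.9 CPM at T12 against 19.9, 17.2 and 20.8 CPM with POLE4 retained (log2 fold change -0.68 ± 0.10 SE, edgeR adjusted p = 0.00383). At T24 it stood at 25.6, 24.5 and 24.6 CPM against 44.6, 49.9 and 48.3 CPM (-0.93 ± 0.07 SE, adjusted p = 1.55e-05). At T60 it stood at 44.9, 40.0 and 50.4 CPM against 94.0, 80.8 and 91.6 CPM (-0.97 ± 0.09 SE, adjusted p = 0.000489). The dPOLE4 means were 62.3%, 52.3% and 50.8% of Ctrl MCM2-2A, and none of these groups overlapped. At T0, after 24 h of treatment and before RA, the Meis2 libraries overlapped (2.05, 2.66 and 2.67 CPM against 2.32, 1.53 and 2.49 CPM). They overlapped after 96 h of treatment too (4.54, 3.80 and 4.14 CPM against 4.85, 4.66 and 3.76 CPM, log2 fold change -0.06 ± 0.18, edgeR adjusted p = 0.943). The T12 call was lost in 4 of 6 fits that left out 1 library (adjusted p from 0.0138 to 0.0344), those without Ctrl MCM2-2A replicate 1 or any of the 3 dPOLE4 MCM2-2A libraries.

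Meis1 fell in this background at T60, to 50.2, 48.5 and 52.7 CPM from 82.2, 70.5 and 80.7 CPM (log2 fold change -0.62 ± 0.08 SE, edgeR adjusted p = 0.000936). Without Ctrl MCM2-2A replicate 1 the log2 fold change was -0.58, inside the threshold, and without replicate 3 the adjusted p was 0.0134. At T12 and T24 Meis1 libraries of both treatments overlapped. Pbx3 differed by -0.58 ± 0.11 at T24 (edgeR adjusted p = 0.00512), just inside the fold threshold. Its libraries stood at 10.7, 9.29 and 10.8 CPM against 15.4, 16.1 and 14.7 CPM and did not overlap. Pbx2 at T60 stood at 119.1, 115.8 and 110.9 CPM against 139.8, 130.8 and 139.0 CPM (-0.24 ± 0.06, edgeR adjusted p = 0.0334). Meis3 stood at 14.8 ± 2.27 CPM against 17.7 ± 1.24 CPM. In all 0, 1, 1, 2 and 0 of the 5 members were DE at T0, T12, T24, T60 and 96 h, all lower, where 0.0715%, 0.404%, 1.02%, 2.25% and 0.304% of all features were DE.

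**Figure D4:**
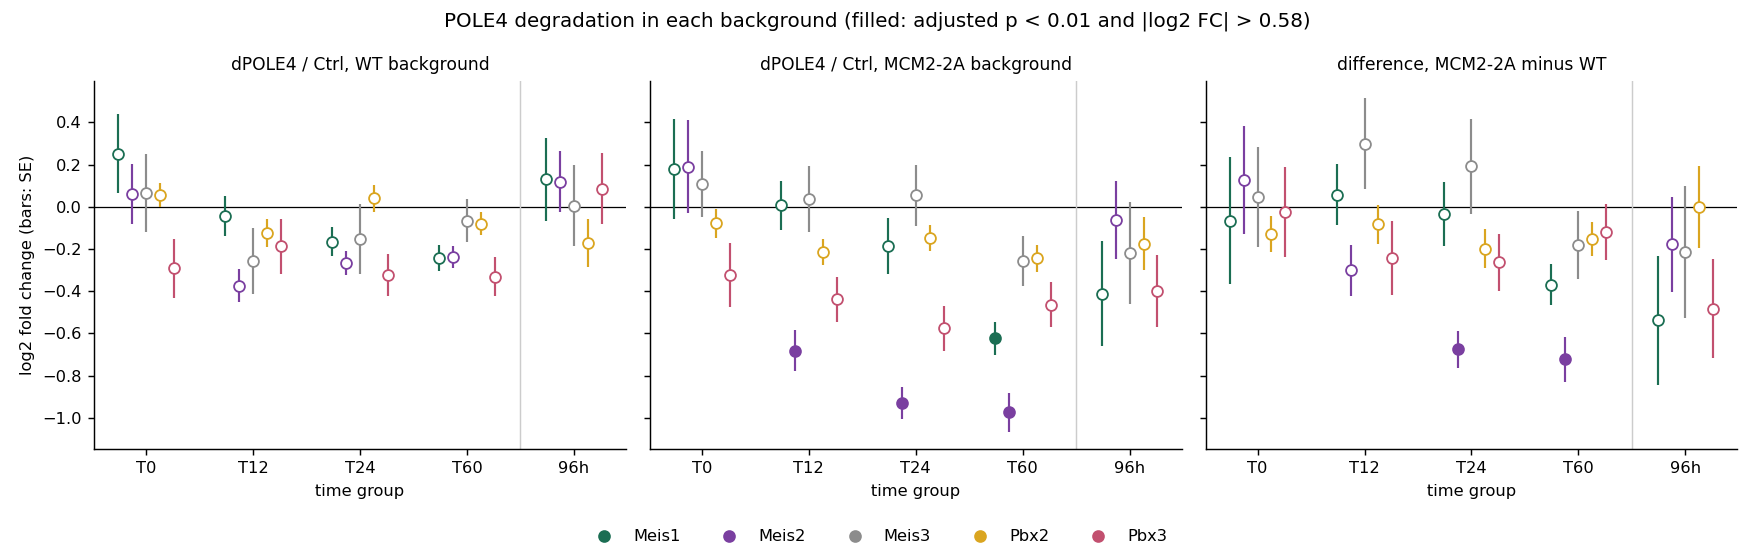
Log2 fold change (± SE) of each member in dPOLE4 against Ctrl in the WT background (left) and the MCM2-2A background (middle), and the difference between these effects (right), by time group with 3 libraries per group. Filled points passed both thresholds; Meis2 reaches -0.93 at T24 and -0.97 at T60 in MCM2-2A, with differences of -0.67 and -0.72.

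Whether POLE4 degradation acted differently in the 2 backgrounds was tested in a fit of the 4 groups of each time. Meis2 was the one member to pass. Its difference was -0.67 ± 0.09 SE at T24 (edgeR adjusted p = 0.00724) and -0.72 ± 0.11 SE at T60 (adjusted p = 0.00570). At T60 dPOLE4 cells kept 83.9% of the Ctrl level of Meis2 in the WT background and 50.8% in the MCM2-2A background. DESeq2 gave adjusted p-values of 7.37e-08 and 5.04e-07 for the same differences. The edgeR calls were lost in 9 of 12 fits without 1 library at T24 (adjusted p from 0.0124 to 0.0312) and in 8 of 12 at T60 (adjusted p from 0.0105 to 0.0289), with log2 differences between -0.63 and -0.72 at T24 and between -0.65 and -0.81 at T60. At T24 the call held without dPOLE4 replicate 1 or 2 or Ctrl MCM2-2A replicate 1, and at T60 without Ctrl replicate 2, Ctrl MCM2-2A replicate 1 or 2, or dPOLE4 MCM2-2A replicate 3. At T12 the Meis2 difference was -0.30 ± 0.12 (edgeR adjusted p = 0.561).

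For Meis1 at T60, which was DE in the MCM2-2A background alone, the difference between backgrounds was -0.37 ± 0.10 (edgeR adjusted p = 0.121) and did not pass. In these tests 0, 0, 1, 1 and 0 of the 5 members were DE at T0, T12, T24, T60 and 96 h. The share of all features was 0.00526%, 0.0159%, 0.0351%, 0.1% and 0.0%. At 96 h 686 features had an unadjusted p below 0.05 in edgeR, and DESeq2 called 1.

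The list genes in the MCM2-2A background gave values beside those of Meis2. Of the 10 Hox partners, 1, 5 and 3 fell on POLE4 degradation at T12, T24 and T60 and none rose. In the same comparisons 0.404%, 1.02% and 2.25% of all features were DE. Hoxb1 fell at T24 from 80.4 ± 2.36 to 44.8 ± 3.84 CPM (log2 fold change -0.84 ± 0.07 SE, edgeR adjusted p = 2.71e-05) and Hoxb2 from 52.2 ± 4.02 to 24.1 ± 2.30 CPM (-1.1 ± 0.09 SE, adjusted p = 1.59e-05). Of 12 other TALE genes tested, 0, 1 and 1 fell and 0, 0 and 1 rose at T12, T24 and T60. Tgif1 and Tgif2 did not pass at T24 or T60. No gene of the Hox or other TALE lists passed the test of the difference between backgrounds. Of the RA list, 1 gene passed it at T60: Cyp26b1, which encodes another RA-degrading enzyme, with a difference of -0.89 ± 0.12 SE (edgeR adjusted p = 0.00296).

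Ordered by level over the 16 groups of the RA experiment, Meis1 ran from Ctrl T60 at 233 CPM over dPOLE4 T60 at 195 and Ctrl MCM2-2A T60 at 77.8 to Ctrl MCM2-2A T0 at 1.74 CPM. Meis2 ran over the same top 3 groups, from 203 CPM in Ctrl T60 to 2.11 CPM in Ctrl MCM2-2A T0. Neighbouring groups overlapped in 8 of 15 steps for Meis1 and in 4 of 15 for Meis2. The dPOLE4 MCM2-2A T60 group reached a Meis2 level of 45.1 CPM, which overlapped that of Ctrl MCM2-2A at T24 (47.6 CPM), and its Meis1 level of 50.4 CPM overlapped that of Ctrl and dPOLE4 at T24. Meis3, Pbx2 and Pbx3 overlapped their neighbours in 13, 11 and 13 of 15 steps. Meis3 was highest in Ctrl MCM2-2A T60 (17.7 CPM), Pbx2 in Ctrl MCM2-2A T24 (141.2 CPM) and Pbx3 in Ctrl T60 (19.0 CPM). In the 96 h experiment all 3 steps overlapped for Meis3, Pbx2 and Pbx3, whose means lay between 2.59 and 4.42, between 41.8 and 53.3 and between 4.90 and 6.51 CPM.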

How the data were processed

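RNA was sequenced paired-end from ribosomal RNA-depleted, strand-specific libraries. The authors trimmed reads with cutadapt 4.2, aligned them to mm10 with STAR keeping multiple alignments, and deposited raw counts per gene (GENCODE) and per repeat subfamily (1146 subfamilies) from TEcount. The strand setting of the counting is not given in the sources used here, so reads of overlapping antisense genes may not be separated. The 48 libraries of the RA experiment and the 12 of the 96 h experiment are separate tables and were never compared in a test.

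The quasi-likelihood test of edgeR 4.0.16 (R 4.3.3) was run on these counts. CPM are counts per 1000000 of the TMM-scaled library size. Each comparison was fitted alone after filterByExpr (minimum count 10, minimum total 15) with TMM scaling over genes and repeats, and p-values were adjusted (Benjamini-Hochberg) over all features tested. Calls needed an adjusted p below 0.01 and an absolute log2 fold change above 0.58. SE is the log2 fold change divided by the square root of F. CPM per kilobase uses the union of annotated exons. Totals and counts limit precision as given in the text, and CPM spreads cover these libraries only. The fit was tested on simulated data. The alternatives were DESeq2 1.42.0, other scalings and filters, a replicate block, all 4 groups in the fit, no fold threshold and leaving out each library.

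The members and lists were chosen with earlier results of these data known. The 5 members are always named, with, for each, the 3 genes of highest Pearson correlation of mean log2(CPM + 0.1) over 16 groups among 20333 genes, and per list the 3 genes of highest mean CPM in Ctrl T60. Some genes this rule names are not reported here. Sequences were matched by symbol to RefSeq promoter windows. Same-numbered libraries deviated together (all 3 correlations over 0.1) in 6 of 20 comparisons of 2 groups: between backgrounds at 96 h in both treatments, and between treatments at T0 and 96 h in both backgrounds. The pairing comes from the numbers in the labels alone.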

Additional observations from a re-analysis of the deposited data

Results flagged for a closer look

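Differences between the backgrounds in the response to a treatment passed the test of the difference itself for Meis1 and Meis2. For POLE4 degradation this held for Meis2, with a log2 difference of -0.67 at T24 and -0.72 at T60 between the effect in the MCM2-2A and in the WT background. For the RA response in Ctrl it held at T24 for Meis1, with a difference of -1.075, and for Meis2, with a difference of 1.09 in the opposite direction. For Meis1 it held also at T60, with -0.86 in Ctrl and -1.15 in dPOLE4. Of all features 0.0351% and 0.1% passed for POLE4 degradation at T24 and T60. For the RA response 2.18% passed in Ctrl at T24, and 9.1% in Ctrl and 8.22% in dPOLE4 at T60. Each of these calls except that for Meis2 in the RA response was lost in some fits that left out 1 library, as given above. The calls for the RA response use values that the members are taken to be selected on, so they are not independent evidence.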

How the results depend on the processing

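Over 29 comparisons, 228 of 242 counts of DE members under another setting lay within 1.5 times the main count, and of 415 values of 55 member fold changes under such settings 402 stayed on their side of the thresholds, 2 lost the call, 11 gained it and 0 reversed. In Ctrl at T0 the count between backgrounds was 1 and became 2 with no filter, TMM from genes only, at least 10 counts in every library, all 4 groups in the fit or TMM from genes outside chromosomes 11, 14 and 15, each by Meis1, and with no fold threshold, by Pbx2. At 96 h it was 2 and became 1 in DESeq2. For POLE4 degradation in MCM2-2A at T24 it was 1 and became 2 in DESeq2 and with no fold threshold. For the RA response in Ctrl it was 0 at T12 and became 1 in DESeq2 and with no filter, and it was 1 at T60 and became 2 with no fold threshold. The cause was not tested. With the replicate number as a block, the count for POLE4 degradation in MCM2-2A became 0 at T12 and 2 at T24. Between backgrounds in dPOLE4 at T24 the block gained Meis3, which was higher in MCM2-2A (log2 fold change 0.61, edgeR adjusted p = 0.000901). Same-numbered libraries of these comparisons share only a number, and where the pairing held the block changed no member's call.

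Leaving out 1 library gave 1 to 2 DE members between backgrounds in Ctrl at T24, 0 to 2 at 96 h, and 1 in dPOLE4 at T0 whichever library was left out. It gave 0 to 1, 1 to 2 and 1 to 2 for POLE4 degradation in MCM2-2A at T12, T24 and T60, and 0 to 1 at T24 and at T60 for its difference between backgrounds. For the RA response it gave 1 to 2 and 0 to 2 in Ctrl at T24 and T60, and 0 to 1 in dPOLE4 at T60. In the other 18 comparisons the count stayed within 1.5 times. Calls were gained by Meis3 between backgrounds in dPOLE4 at T24 without dPOLE4 replicate 2 (log2 fold change 0.74), by Pbx3 on POLE4 degradation in MCM2-2A at T24 without dPOLE4 MCM2-2A replicate 3 (-0.62), and by Meis2 in the RA response in Ctrl at T60 without Ctrl MCM2-2A replicate 2 of T60 (0.61). The one change of sign was Meis1 between backgrounds in Ctrl at 96 h, with -0.032 without Ctrl MCM2-2A replicate 1 and up to 0.26 over the 6 fits. Few reads limit Meis1, Meis2 and Meis3 before RA.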
